A study of Mus musculus with 4 samples.

Results

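Genes of cholesterol and fatty acid synthesis were followed in Nf2-deleted mouse Schwann cells, with and without NXD30001, which the series names as an HSP90 inhibitor. The list holds 35 symbols, namely enzymes of the sterol pathway, its regulators, carriers of cholesterol, and enzymes that make, elongate or desaturate fatty acids. A gene was taken when its symbol equalled a listed one, its row had passed the authors' processing and its level was at least 1 FPKM in either library of a table. FPKM is a level per transcript length and per sequenced fragments. This gave 33 of 12676 compared genes in culture and 34 of 15550 in tumours. Hmgcs1 was not analysed here, and Abcg1 was listed at 0 in both cultured libraries. Nearest above the minimum in culture was Mvk, with 1.35 FPKM in NXD30001 cells and 1.18 FPKM in DMSO cells.

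The cells were ESC-FC1801, derived from embryonic Schwann cells of FVB/N mice. Their floxed Nf2 alleles had been deleted in vitro with a Cre adenovirus (labelled Nf2Flox/Flox, NF2-/-), and this deletion is shared by all 4 groups. The cultured groups were 1 µM NXD30001 and DMSO, each for 24 h. Both grew in serum-free N2 medium with neuregulin-β1 and forskolin. The tumour groups were mice that carried ESC-FC1801 tumours and received 100 mg/kg NXD30001 or vehicle, each 3 times a week for 4 weeks. The age and strain of the host mice, the number of animals behind a library and the time from the last dose to collection are not given in the sources used here. With 1 library in each of the 4 groups, no value has a replicate error and no test was run, so "higher" and "lower" compare single libraries.

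Cells build cholesterol from acetyl-CoA through mevalonate, farnesyl diphosphate, squalene and lanosterol. Transcription of these enzymes is driven mainly by SREBP-2 (gene Srebf2), and that of fatty acid enzymes mainly by SREBP-1 (gene Srebf1). When sterols are scarce, SCAP carries the SREBP precursors from the endoplasmic reticulum to the Golgi, where they are cut into active factors, and INSIG proteins hold SCAP back when sterols are plentiful. Schwann cells make most of the cholesterol and much of the lipid of peripheral myelin themselves. HSP90 has been described as a stabilising partner of the SCAP-SREBP complex in cultured human cells.

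Depth is not stated by FPKM, but genes with the error of 1 fragment in each library gave its ratio. That ratio of NXD30001 to untreated depth was 1.05 in culture (40 genes) and 1.19 in tumours (56 genes). The authors' deposited tables hold a statistic for each fold, and fold divided by statistic gives an implied error, which covers no biological spread. It belongs to the log2 ratio without a pseudocount, so every multiple of it given for a gene is of that ratio and not of the smaller log2(FPKM + 1) difference. Its median at 30 to 100 FPKM was 0.69 in culture and 0.30 in tumours (SE, log2), so a member had to differ by far more in culture to exceed it. Sox10, a Schwann lineage transcription factor gene, was at 4.40 FPKM in NXD30001 cells and 8.42 FPKM in DMSO cells, and at 139.8 FPKM in the NXD30001 tumour and 47.0 FPKM in the vehicle tumour. S100b, another common Schwann cell marker, stayed under 1 FPKM in every library.

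Promoters are shown for 4 members whose levels stood out in culture, since SREBP factors act at promoters together with NF-Y, which binds CCAAT boxes, and Sp1, which binds GC boxes. Each runs 5′ to 3′ on the strand of the gene, from 250 bases before to 50 bases after the most upstream start in RefSeq (GRCm38.p6), and capitals mark CCAAT and GGGCGG on either strand. Lss lies at chr10:76531355-76531654 (plus strand), Dhcr7 at chr7:143822917-143823216 (plus strand), Fads2 at chr19:10101454-10101753 (minus strand) and Abca1 at chr4:53159846-53160145 (minus strand).
Lss: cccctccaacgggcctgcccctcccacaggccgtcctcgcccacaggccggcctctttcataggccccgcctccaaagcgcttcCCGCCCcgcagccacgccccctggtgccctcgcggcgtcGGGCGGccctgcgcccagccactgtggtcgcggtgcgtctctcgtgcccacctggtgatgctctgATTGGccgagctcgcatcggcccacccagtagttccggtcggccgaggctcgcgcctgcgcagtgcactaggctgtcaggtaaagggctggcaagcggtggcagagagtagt
Dhcr7: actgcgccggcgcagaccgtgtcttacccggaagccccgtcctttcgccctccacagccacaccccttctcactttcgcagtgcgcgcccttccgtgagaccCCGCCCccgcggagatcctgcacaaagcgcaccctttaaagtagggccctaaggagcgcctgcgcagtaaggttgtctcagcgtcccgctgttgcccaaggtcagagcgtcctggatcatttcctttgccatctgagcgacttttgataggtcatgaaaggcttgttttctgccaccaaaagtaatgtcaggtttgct
Fads2: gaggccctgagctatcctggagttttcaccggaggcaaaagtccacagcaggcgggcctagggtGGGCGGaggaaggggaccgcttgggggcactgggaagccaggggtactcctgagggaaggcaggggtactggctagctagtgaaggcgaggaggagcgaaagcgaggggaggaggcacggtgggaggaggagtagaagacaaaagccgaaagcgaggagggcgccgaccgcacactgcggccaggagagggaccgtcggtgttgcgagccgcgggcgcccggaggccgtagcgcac
Abca1: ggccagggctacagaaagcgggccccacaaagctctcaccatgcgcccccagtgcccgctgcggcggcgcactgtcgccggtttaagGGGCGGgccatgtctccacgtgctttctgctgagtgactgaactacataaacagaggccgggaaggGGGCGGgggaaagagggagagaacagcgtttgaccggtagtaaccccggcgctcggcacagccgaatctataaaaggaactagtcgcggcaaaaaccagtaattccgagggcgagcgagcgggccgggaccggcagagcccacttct
Lss and Dhcr7 were lower with NXD30001 in culture and Fads2 and Abca1 higher. The Lss window holds 1 CCAAT and 2 GGGCGG, the Abca1 window 2 GGGCGG, and the Dhcr7 and Fads2 windows 1 GGGCGG each.

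Of the 35 listed genes 26 matched a RefSeq promoter, 1 of them, Sc4mol, through its newer symbol. CCAAT, searched on both strands, was found in 20 of these 26 (76.9%), against 38.0% of 27025 promoters of all genes. It was in 13 of the 14 sterol pathway enzymes and in 7 of the other 12 members. The enzyme without it was Dhcr7. GGGCGG was likewise in 20 of the 26, against 35.9% of all promoters, and the enzyme without it was Pmvk. The member promoters had a median GC content of 62.5%, against 52.7% over all promoters. The part of GC content in both shares was not tested. The sterol regulatory element, searched as TCACNCCAC on both strands, was in 1 of the 26 (3.85%), that of Hmgcs1, and in 1.22% of all promoters. Other forms of this element were not searched, so a promoter without TCACNCCAC may still hold one. No motif contains another. Of the 4 members at least 2-fold lower in culture that matched, 2 (Pmvk and Lss) held CCAAT, and of the 2 that were at least 2-fold higher none did.

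In culture the lipid synthesis genes divided. Lanosterol synthase, 7-dehydrocholesterol reductase, phosphomevalonate kinase and squalene synthase RNA was lower in NXD30001 cells than in DMSO cells, by 5.48 times for Lss, 4.12 times for Dhcr7, 3.53 times for Pmvk and 2.61 times for Fdft1. The fatty acid genes Elovl6 and Scd2 were lower as well, by 2.30 and 2.06 times. The desaturase gene Fads2 and the cholesterol exporter gene Abca1 were higher, by 2.83 and 2.87 times. Between these stood most of the pathway, 25 of 33 measured members, within 2-fold once 1 FPKM was added to each level. Srebf1 and Npc1 are among the 25, though without the added 1 FPKM they were 2.49 and 2.03 times lower. In tumours no member reached 2-fold in either direction.

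Past 2-fold, the members' shares in culture were under those of all genes. For lower genes this order reversed with a pseudocount of 5 FPKM or at a 1.5-fold threshold. Differences are log2(FPKM + 1) of the NXD30001 library minus that of its untreated library, a scale that understates changes of low genes. On it 6 of 33 members in culture were at least 2-fold lower (18.2%), against 24.8% of all compared genes, and 2 were at least 2-fold higher (6.06%), against 12.6%. Together these 8 compare with 37.5% of all genes past 2-fold. Above 0 were 12 of the 33, against 40.6% of all genes. The median member differed by -0.52 and the median gene by -0.25. Relative to that median gene, 20 members were lower and 13 higher. Centred on it, 4 members (Pmvk, Fdft1, Lss and Dhcr7) were lower by 2-fold or more and 3 (Npc2, Abca1 and Fads2) higher, where all genes gave 18.4% and 17.8%. In tumours 7.32% of all genes were higher by 2-fold or more and 6.93% lower, 14.3% in all, against no member. Centring there gave 7.61% higher and 6.52% lower for all genes. The members ran from -0.58 (Dhcr7) to 0.84 (Tm7sf2). Their median there was 0.15, against -0.03 for all genes, and 22 of the 34 were above 0, against 47.3% of all genes. Members were more abundant than the compared genes. Their median level was 30.3 FPKM against 11.2 FPKM in culture, and 41.9 FPKM against 16.4 FPKM in tumours. Genes at 1 to 3 FPKM had larger median implied errors, 1.01 in culture and 0.81 in tumours, than those at 30 to 100 FPKM. The shares were not matched for level, and the part of level in them was not tested.

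**Figure D1:**
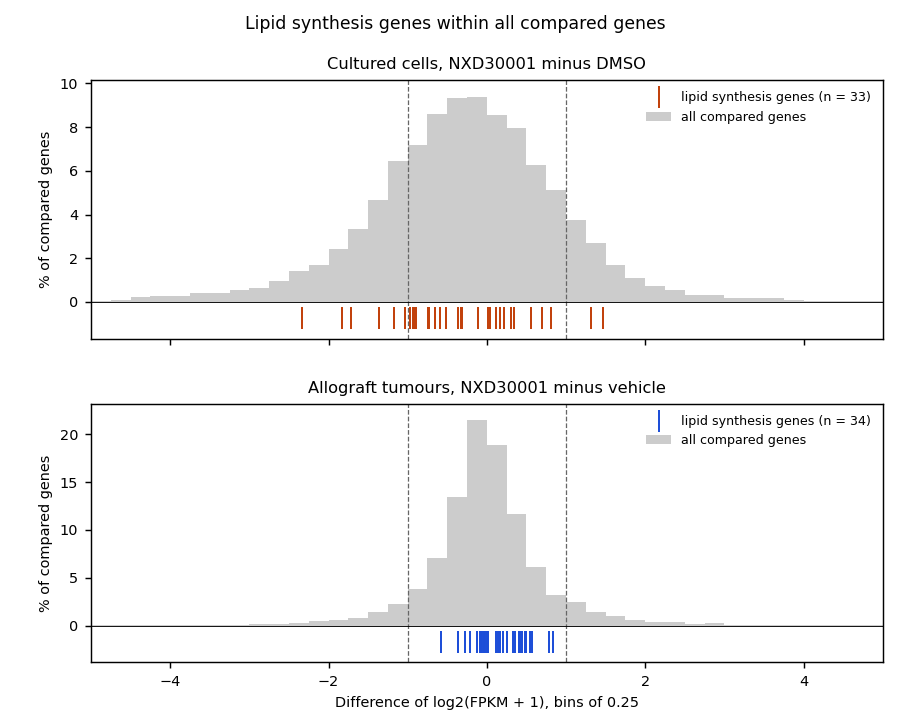
Gray bars give the percentage of all compared genes in bins of the difference of log2(FPKM + 1), NXD30001 minus untreated, and coloured ticks the lipid synthesis genes, with dashed lines at 2-fold. The axis is cut at -5 and 5. Members in culture (33) spread from -2.34 to 1.47, and those in tumours (34) lie between the dashed lines.

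The authors' deposited table called 2 members in culture, Lss and Dhcr7, both lower. This is 6.06% of the measured members, against 9.89% of all compared genes, of which 7.14% were lower and 2.75% higher. In tumours it called 1, Scd2, which was higher, or 2.94% against 5.59% of all genes, of which 3.14% were higher and 2.45% lower. A log2 ratio, without a pseudocount, of at least 2 implied errors was found in culture, with no adjustment, for 4 lower members (Pmvk, Lss, Dhcr7 and Srebf1) and 2 higher ones (Abca1 and Fads2). All genes gave 15.7% lower and 6.63% higher by this measure. In tumours it was found for 5 higher members (Tm7sf2, Srebf1, Abca1, Fasn and Scd2) and 1 lower (Dhcr7), and for 7.85% and 7.47% of all genes. Ratios smaller than 1 implied error were found for 16 of 33 members in culture and 19 of 34 in tumours.

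The isoprenoid steps, from mevalonate to farnesyl diphosphate, had 5 measured members. Their medians were -0.33 in culture and 0.16 in tumours. Pmvk, which adds the second phosphate to mevalonate (ENSMUSG00000027952, chromosome 3 from 89263040 to 89272935, mm9), was at 8.68 FPKM in NXD30001 cells and 30.7 FPKM in DMSO cells. That difference of -1.71 had an implied error of 0.74 and was not called. In tumours Pmvk was at 38.0 FPKM with NXD30001 and 27.8 FPKM with vehicle, a difference of 0.44. No other measured gene of these steps was lower by 2-fold in culture.

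Mvk, mevalonate kinase, differed by 0.11 in culture near the floor and was at 53.3 FPKM in the NXD30001 tumour and 47.5 FPKM in the vehicle tumour. Mvd, mevalonate diphosphate decarboxylase, was at 2.98 FPKM in NXD30001 cells and 4.00 FPKM in DMSO cells, and at 21.0 and 16.2 FPKM in NXD30001 and vehicle tumours. Idi1, which isomerises the isoprene unit, was at 83.9 FPKM in NXD30001 cells and 74.7 FPKM in DMSO cells. Fdps, farnesyl diphosphate synthase, was at 4.57 FPKM in NXD30001 cells and 7.0 FPKM in DMSO cells. Their tumour differences were 0.15 for Idi1 and 0.14 for Fdps. In tumours all 5 of these genes were slightly higher with NXD30001, by 0.14 to 0.44, and only Pmvk exceeded its implied error of 0.32.

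Lss, lanosterol synthase, closes the sterol ring (ENSMUSG00000033105, chromosome 10 from 75994363 to 76024971, mm9). It was at 9.33 FPKM in NXD30001 cells and 51.2 FPKM in DMSO cells, a difference of -2.34 (implied error 0.76), and 5.8% of all compared genes had a lower one. The tumour levels were 11.7 FPKM with NXD30001 and 10.1 FPKM with vehicle. That tumour difference of 0.20 lay within its implied error of 0.34. Its locus is also given for the row AC158618.1, which was under 1 FPKM in all libraries.

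Dhcr7, the reductase that forms cholesterol from 7-dehydrocholesterol (ENSMUSG00000058454, chromosome 7 from 151009050 to 151034315, mm9), was at 4.45 FPKM in NXD30001 cells and 18.3 FPKM in DMSO cells. The difference was -1.83 with an implied error of 0.65. The tumour levels of Dhcr7 were 46.6 FPKM with NXD30001 and 70.2 FPKM with vehicle, a difference of -0.58 (implied error 0.27) and no call. By its ratio without a pseudocount, Dhcr7 was the only member at least 2 implied errors lower in both settings. Fdft1, squalene synthase, which commits farnesyl diphosphate to sterols, was at 40.3 FPKM in NXD30001 cells and 105 FPKM in DMSO cells, and at 38.8 FPKM in the NXD30001 tumour and 32.6 FPKM in the vehicle tumour. Its culture difference of -1.36 had an implied error of 0.75.

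Other sterol enzymes went the other way or stayed close in culture. Sc4mol, the methylsterol monooxygenase now named Msmo1, was at 119 FPKM in NXD30001 cells and 72.9 FPKM in DMSO cells, and at 95.4 FPKM in the NXD30001 tumour and 71.7 FPKM in the vehicle tumour. Sqle, squalene epoxidase, a rate-limiting oxygenase, was at 62.5 FPKM in NXD30001 cells and 42.2 FPKM in DMSO cells, but at 45.5 FPKM in the NXD30001 tumour and 58.9 FPKM in the vehicle tumour. Cyp51, lanosterol demethylase, was at 84.9 FPKM in NXD30001 cells and 72.9 FPKM in DMSO cells, and at 42.3 and 43.9 FPKM in NXD30001 and vehicle tumours. Sqle and Sc4mol were the only sterol enzymes above their implied error and higher in treated cells, at 1.03 and 1.61 times that error.

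Nsdhl and Hsd17b7 complete the removal of the methyl groups that Sc4mol begins, yet differed from it in culture. Nsdhl was at 52.4 FPKM in NXD30001 cells and 87.5 FPKM in DMSO cells, and Hsd17b7 at 11 FPKM in NXD30001 cells and 21.4 FPKM in DMSO cells. In tumours they were higher with NXD30001, at 23.9 FPKM against 16.8 FPKM with vehicle for Nsdhl and 18.9 FPKM against 12.6 FPKM for Hsd17b7. The sterol isomerase gene Ebp (0.04 in culture, 0.00 in tumours), the desaturase gene Sc5d (-0.11 and 0.15) and Tm7sf2, a sterol reductase gene (0.02 in culture), had small differences. Tm7sf2 held the largest member difference in tumours, 0.84 with an implied error of 0.48, at 8.97 FPKM with NXD30001 and 4.56 FPKM with vehicle. Its locus is also given for 1110014N23Rik, at 25.5 FPKM with NXD30001 and 20.7 FPKM with vehicle, so reads between them are not assigned with certainty. Over the 11 sterol enzymes the medians were -0.11 in culture and 0.20 in tumours, and their summed level was 429.3 FPKM in NXD30001 cells and 518.8 FPKM in DMSO cells.

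**Figure D2:**
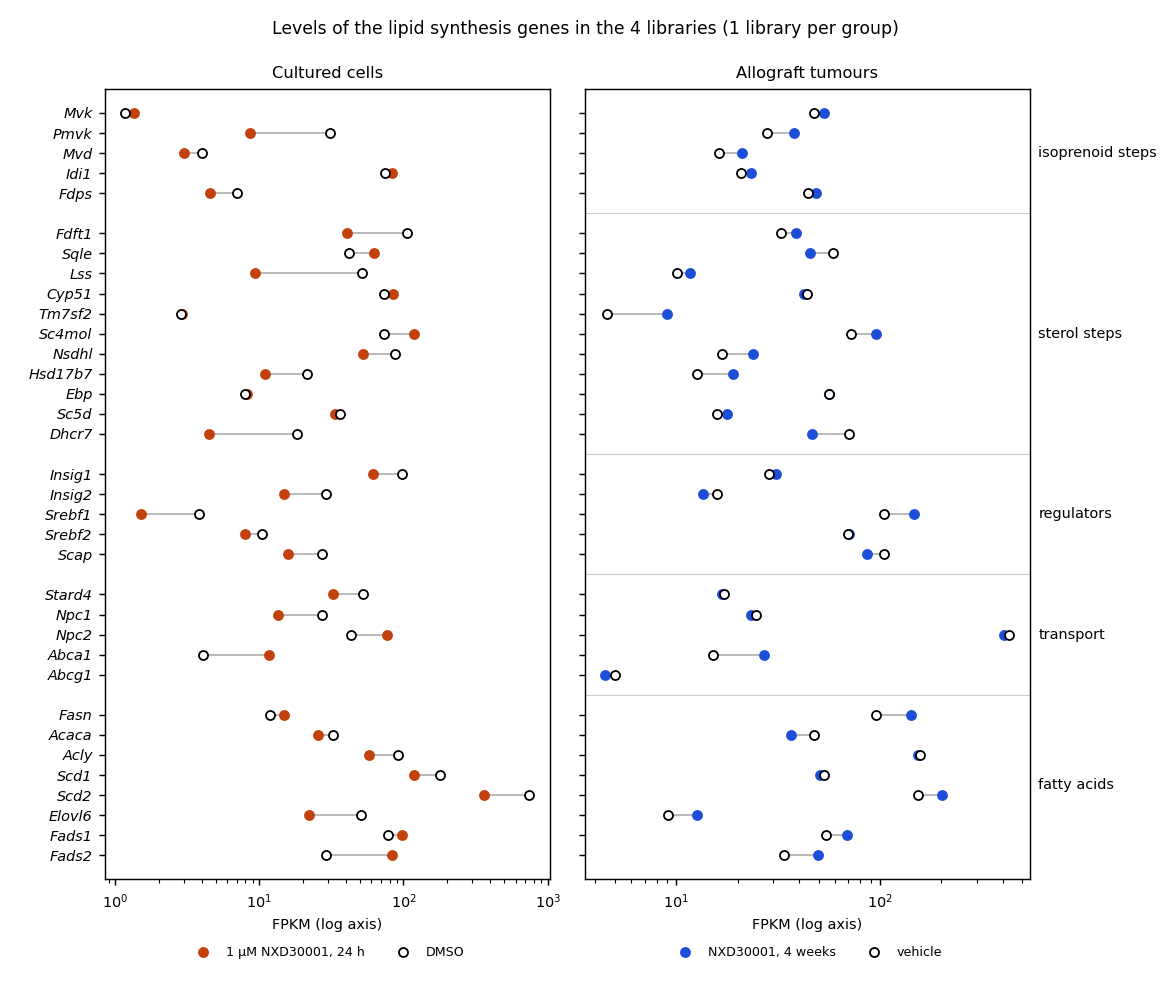
Each row is a member, with its FPKM on a log axis in NXD30001 (filled) and untreated (open) libraries of cultured cells (left) and tumours (right), 1 library per group. The widest gaps in culture are those of Lss (9.33 and 51.2 FPKM) and Dhcr7 (4.45 and 18.3 FPKM), and gaps in the tumours are short.

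All 5 regulators were lower in treated cells than in DMSO cells, none by 2-fold on the log2(FPKM + 1) scale, with a median of -0.74. All 5 also lay below the median gene. Over all compared genes 59.4% were below 0. Srebf1, which encodes SREBP-1, was at 1.52 FPKM in NXD30001 cells and 3.79 FPKM in DMSO cells, a difference of -0.93. The tumour table had the other direction, at 147 FPKM with NXD30001 and 105 FPKM with vehicle. That difference of 0.48 had an implied error of 0.18. The Srebf1 locus is also given for Rai1, at 3.71 FPKM in NXD30001 cells and 3.52 FPKM in DMSO cells, and at 20.6 FPKM in the NXD30001 tumour and 13.8 FPKM in the vehicle tumour. It is given as well for 4930412M03Rik, at 8.43 FPKM in NXD30001 cells and 2.59 FPKM in DMSO cells, a row that was higher where Srebf1 was lower.

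Srebf2, which encodes SREBP-2, was at 7.99 FPKM in NXD30001 cells and 10.5 FPKM in DMSO cells, and at 70.4 FPKM in the NXD30001 tumour and 70.0 FPKM in the vehicle tumour. Scap, the escort of both SREBPs, was at 15.8 FPKM in NXD30001 cells and 27.1 FPKM in DMSO cells, and at 86.6 and 105 FPKM in NXD30001 and vehicle tumours. Insig1, itself a target of SREBP, was at 61.6 FPKM in NXD30001 cells and 97.2 FPKM in DMSO cells, and differed by 0.11 in tumours. Insig2, the second retention factor, was at 14.9 FPKM in NXD30001 cells and 29.1 FPKM in DMSO cells, and differed by -0.21 in tumours. None of these 4 ratios in culture reached 2 implied errors. Scap, Insig1 and Insig2 lay between 0.93 and 1.22 times their error, and Srebf2 at 0.51 times.

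Among the cholesterol carriers, Abca1, the membrane transporter that passes cholesterol to lipoproteins (ENSMUSG00000015243, chromosome 4 from 53043659 to 53172767, mm9), was higher with NXD30001 in both settings. It was at 11.6 FPKM in NXD30001 cells and 4.04 FPKM in DMSO cells, a difference of 1.32 (implied error 0.71.) In tumours it was at 26.9 FPKM with NXD30001 and 15.2 FPKM with vehicle, a difference of 0.78 (implied error 0.29.) By the ratio without a pseudocount it was the only member at least 2 implied errors higher in both (2.15 and 2.79), and the authors' deposited tables called it in neither. Its partner in efflux, Abcg1, was at 4.49 FPKM in the NXD30001 tumour and 5.03 FPKM in the vehicle tumour.

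The NPC proteins move cholesterol out of lysosomes, and their genes differed in opposite directions in culture. Npc2 was at 76.7 FPKM in NXD30001 cells and 43.4 FPKM in DMSO cells, and Npc1 at 13.5 FPKM in NXD30001 cells and 27.4 FPKM in DMSO cells. In tumours Npc2 was the most abundant member, at 405 FPKM with NXD30001 and 432 FPKM with vehicle, and Npc1 was at 23.3 and 24.7 FPKM with NXD30001 and vehicle. The Npc1 locus is also given for 3110002H16Rik, at 25 FPKM in NXD30001 cells and 25.9 FPKM in DMSO cells. Stard4, a soluble sterol carrier gene, was at 32.7 FPKM in NXD30001 cells and 52.2 FPKM in DMSO cells, and differed by -0.04 in tumours.

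Of the fatty acid genes, Fads2, the delta-6 desaturase (ENSMUSG00000024665, chromosome 19 from 10137286 to 10176010, mm9), had the largest higher difference of any member in culture. It was at 82.6 FPKM in NXD30001 cells and 29.2 FPKM in DMSO cells, a difference of 1.47 (implied error 0.73.) Tumour levels were 49.6 FPKM with NXD30001 and 33.8 FPKM with vehicle, a difference of 0.54. The adjacent gene Fads1, the delta-5 desaturase, was at 98.2 FPKM in NXD30001 cells and 77.5 FPKM in DMSO cells, and at 68.6 and 54.5 FPKM in NXD30001 and vehicle tumours. Both desaturases of polyunsaturated fatty acids were thus above 0 in both settings.

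The desaturases that make monounsaturated fatty acids, Scd1 and Scd2, are neighbouring related copies on the same chromosome. Scd2 (ENSMUSG00000025203, chromosome 19 from 44368164 to 44381350, mm9) was the most abundant member in both cultured libraries, at 362 FPKM in NXD30001 cells and 748 FPKM in DMSO cells. That difference of -1.04 came with an implied error of 13.19, far from those of other members, and centring on the median gene brought it to -0.79. In tumours Scd2 was at 201 FPKM with NXD30001 and 153 FPKM with vehicle, a difference of 0.40. The implied error there was 0.03, where genes at 100 to 300 FPKM had a median of 0.29, so the call of Scd2 rests on an unusually small error. Scd1 was at 118 FPKM in NXD30001 cells and 178 FPKM in DMSO cells, and at 50.5 and 53.1 FPKM in NXD30001 and vehicle tumours. Reads shared by the copies may be split between them, so each level is uncertain.

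Elovl6, which elongates palmitate, was at 22.1 FPKM in NXD30001 cells and 50.9 FPKM in DMSO cells, a difference of -1.17 (implied error 0.71.) Its tumour levels were 12.7 FPKM with NXD30001 and 9.13 FPKM with vehicle. Acly, which makes cytosolic acetyl-CoA from citrate, was at 57.6 FPKM in NXD30001 cells and 91.0 FPKM in DMSO cells, and at 154 and 157 FPKM in NXD30001 and vehicle tumours. Acaca, acetyl-CoA carboxylase, was lower by small amounts in both settings (-0.32 in culture and -0.37 in tumours). Fasn, fatty acid synthase, was at 14.9 FPKM in NXD30001 cells and 11.9 FPKM in DMSO cells, and at 142 FPKM in the NXD30001 tumour and 95.2 FPKM in the vehicle tumour. The tumour difference of 0.57 in Fasn had an implied error of 0.26, and its ratio without a pseudocount was at 2.19 times that error.

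**Figure D3:**
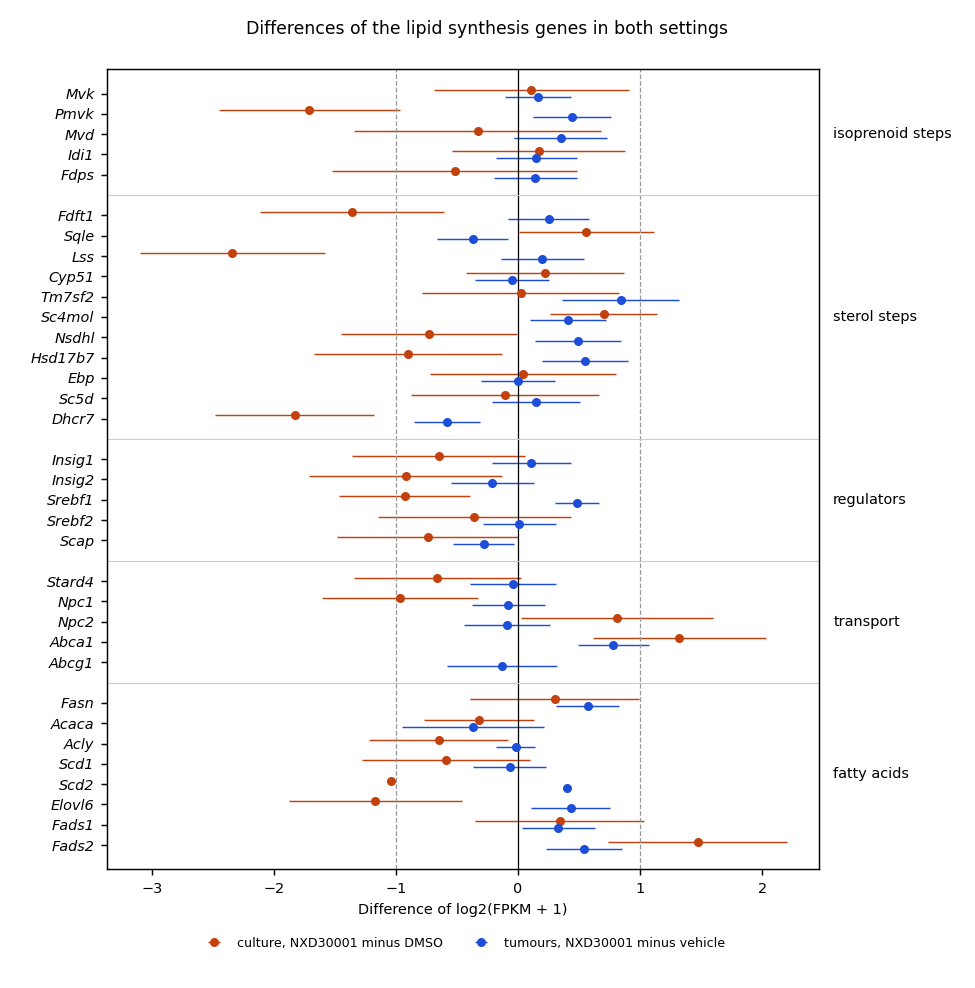
Points give the difference of log2(FPKM + 1), NXD30001 minus untreated, for each member in culture (orange) and tumours (blue), bars 1 implied error to each side, and dashed lines 2-fold. The bar of Scd2 in culture (13.19) is not drawn. Culture points reach beyond 2-fold for 8 members, and tumour points for none.

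Side by side, 33 members were measured in both settings, and 27 of these had the larger absolute difference in culture, as did 74.4% of 11559 genes compared in both. Their implied errors were also larger there, with a median of 0.72 over the measured members against 0.31 in tumours. Of the 33, 9 were higher with NXD30001 in both, 8 lower in both, 13 lower in culture and higher in tumours, and 3 the reverse. Over all genes compared in both, 19.4% were higher in both, 31.6% lower in both, 27.5% lower in culture and higher in tumours, and 21.5% the reverse. The summed level of the members was 1548 FPKM in NXD30001 cells and 2150 FPKM in DMSO cells. For tumours the sum was 2131 FPKM with NXD30001 and 1972 FPKM with vehicle. Scd2 made up the largest piece of the culture gap.

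Other genes of lipid handling were set beside these. Further genes of sterol and isoprenoid synthesis, 16 measured in culture, had a median of -0.19. Of these 5 were lower by 2-fold or more (31.2%, against 24.8% of all genes) and 2 higher (12.5%, against 12.6%). Among the higher was Syvn1, a ubiquitin ligase gene of the endoplasmic reticulum, at 20.8 FPKM in NXD30001 cells and 1.88 FPKM in DMSO cells. Lower were Acat1 (33.2 FPKM with NXD30001 and 112 FPKM with DMSO), Coq2 and Pdss1, which serve ubiquinone synthesis, Fdxr and Dhdds. Not every gene of this list, Syvn1 among them, encodes an enzyme of sterol or isoprenoid synthesis. Fdxr and Dhdds are named here after their values were seen. Of 16 measured in tumours none reached 2-fold, against 14.3% of all genes.

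Cholesterol uptake, storage and efflux had 18 measured genes in culture with a median of -0.71. Here 1 was at least 2-fold higher (5.56%, against 12.6% of all genes) and 5 were lower by as much (27.8%, against 24.8%). Among the lower was Lrp8, a lipoprotein receptor gene, at 6.21 FPKM in NXD30001 cells and 40.5 FPKM in DMSO cells. Others were Scarb1, the HDL receptor (9.26 and 40.3 FPKM in NXD30001 and DMSO cells), Soat1, which esterifies cholesterol, and Mylip. The authors' deposited table called Lrp8 and Scarb1. In tumours this list had 21 measured genes and a median of 0.12. Nceh1, a cholesterol ester hydrolase gene, was at 44.5 FPKM with NXD30001 and 20.6 FPKM with vehicle, and Nr1h3, the oxysterol receptor LXR-alpha, at 8.66 FPKM with NXD30001 and 2.45 FPKM with vehicle, with an implied error of 4.36. Apoe, a lipoprotein gene, was at 1346 FPKM with NXD30001 and 873 FPKM with vehicle, and was called.

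Further fatty acid genes (16 measured in culture) had a median of -0.48. At least 2-fold lower were 4 of the 16, a share close to that of all genes (24.8%). Only 1, Mid1ip1, was at least 2-fold higher, a share under that of all genes (12.6%). Elovl5 was at 37.3 FPKM in NXD30001 cells and 117 FPKM in DMSO cells, and at 55.6 and 98.7 FPKM in NXD30001 and vehicle tumours. Glycerolipid and phospholipid genes (18 measured) had a median of -0.68 in culture. At least 2-fold lower were 5 (27.8%, against 24.8% of all genes) and higher 2 (11.1%, against 12.6%). In tumours 3 of their 20 measured genes passed 2-fold. Chka, choline kinase alpha, was at 33.0 FPKM with NXD30001 and 1.56 FPKM with vehicle, at a locus shared with another row, and was called. Pcyt2, of phosphatidylethanolamine synthesis, was at 24.4 FPKM with NXD30001 and 7.86 FPKM with vehicle, and Pcyt1b at 4.28 FPKM with NXD30001 and 13.0 FPKM with vehicle, with an implied error of 9.31. Fatty acid oxidation genes (18 measured in culture, 20 in tumours) had medians of -0.33 and -0.20. At least 2-fold lower were 5 in culture (27.8%, against 24.8% of all genes) and 0 in tumours (against 6.93%). None was 2-fold higher, against 12.6% of all genes in culture and 7.32% in tumours.

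Genes of sphingolipids and galactolipids, which include the lipids typical of myelin, had a median of 0.22 in culture. Of 13 measured, 5 were higher by 2-fold or more (38.5%, against 12.6% of all genes) and none lower by as much (against 24.8%), and a difference from the other lists was not tested. Fa2h, which makes the hydroxylated fatty acids of myelin galactolipids, was at 10.6 FPKM in NXD30001 cells and 0.279 FPKM in DMSO cells. Sgms2, a sphingomyelin synthase gene, was at 20.6 FPKM in NXD30001 cells and 2.00 FPKM in DMSO cells. Both were called in the authors' deposited table. Ugcg (222 FPKM with NXD30001 and 69.3 FPKM with DMSO) and Sptlc2 (91.4 and 39.3 FPKM with NXD30001 and DMSO) were higher as well, as was Ugt8a, the galactosyltransferase of cerebroside synthesis, named after its value was seen, at 55.2 FPKM with NXD30001 and 25.4 FPKM with DMSO. In tumours Gal3st1, which makes sulfatide, was at 20 FPKM with NXD30001 and 4.99 FPKM with vehicle and was called. Lass4 was the other gene past 2-fold of 12 measured (16.7% higher, against 7.32% of all genes), and the median was -0.11. Of the genes named for culture, Sgms2 (-0.05), Ugcg (-0.22) and Sptlc2 (-0.15) were below 0 in tumours. Fa2h and Ugt8a were not among the 12 measured there. Gal3st1 differed by -0.23 in culture.

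**Figure D4:**
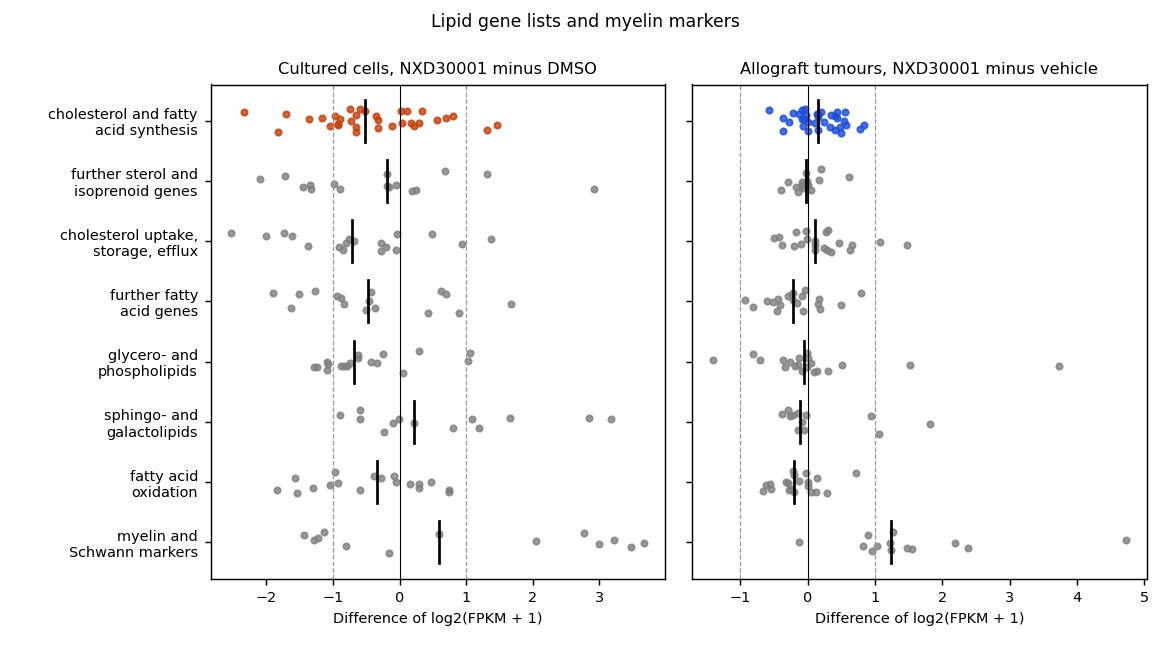
Each point is a gene and each black bar a list median of the difference of log2(FPKM + 1), NXD30001 minus untreated, in culture (left) and tumours (right), with dashed lines at 2-fold. The coloured points are the cholesterol and fatty acid synthesis genes, with medians of -0.52 and 0.15. Myelin and Schwann markers have medians of 0.59 and 1.23.

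Markers of cell types differed between the same libraries. Myelin and Schwann markers (13 measured in each table) were at a summed 3578 FPKM in NXD30001 cells and 972 FPKM in DMSO cells, and at 824 FPKM in the NXD30001 tumour and 284 FPKM in the vehicle tumour. In culture 6 of the 13 were higher by 2-fold or more (46.2%, against 12.6% of all genes) and 4 lower (30.8%, against 24.8%). In tumours 9 were at least 2-fold higher (69.2%, against 7.32%). Over all genes 52.7% were lower in the NXD30001 tumour, 6.93% by 2-fold or more. Macrophage markers, all 12 of them lower there, summed to 1134 FPKM with NXD30001 and 1441 FPKM with vehicle. Their differences ran from -1.46 to -0.07, and 2 were at least 2-fold lower (16.7%). Endothelial markers, all 10 lower, summed to 41.6 FPKM with NXD30001 and 101 FPKM with vehicle. Of these 6 were at least 2-fold lower (60.0%).

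Adipocyte markers, listed because fat cells express Fasn and Scd1 strongly, had 3 of 10 measured in tumours, where none was at 0 in both libraries. Their sum was 19.4 FPKM with NXD30001 and 74.3 FPKM with vehicle, mostly Fabp4, which endothelial cells and macrophages also express, at 12.5 FPKM with NXD30001 and 65.8 FPKM with vehicle. None of the 8 hepatocyte markers was measured in either table. The part of these cell types in the tumour values was not tested, and in a tumour fewer cells of a type and less RNA per cell cannot be told apart. In culture 1 of 12 macrophage markers and 1 of 10 endothelial markers reached 1 FPKM, and no adipocyte marker did, with Adipoq, Plin1, Retn, Pck1 and Cfd at 0 in both libraries.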

How the data were processed

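RNA of cultured cells and tumours was sequenced in 4 libraries. Reads were handled with CASAVA, TopHat 1.2.0, Cufflinks 1.0.2 and Cuffdiff on build mm9, per the submitters' processing notes. Annotation, read depth and strandedness are not given in the sources used here. Overlapping genes on either strand are therefore uncertain. The authors deposited 1 gene table for culture and 1 for tumours, each with the FPKM of an untreated and a treated library. Per the file headers they also hold the natural log of the fold change, the fold ratio, a test statistic and q-value, both treated as scores of the authors' comparison, a p-value and a call. Called genes had a q-value under 0.05 in the deposited tables, but uncalled ones reached 2.05. The authors' p-values were not used.

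Groups came from the titles. A sample type of cultured cells is recorded for all 4, whereas the titles and treatments of 2 describe tumours, and those were followed. Levels were compared within a table, since the tables were made separately. Rows with status OK and at least 1 FPKM in either library were compared as differences of log2(FPKM + 1). Left out were 705 FAIL and 61 LOWDATA rows in culture and 347 FAIL and 449 LOWDATA rows in tumours, since a 0 there can be a failed estimate. The implied error is the deposited natural log fold divided by the deposited statistic, on the log2 scale and without a pseudocount. Depth ratios came from genes whose implied error was that of 1 fragment in each library, and 77.5% of 40 genes in culture and 89.3% of 56 in tumours lay within 0.05 of their median log2 ratio.

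Members and lists were chosen with earlier results of these data known. Every member is named. From the other lists, up to 4 genes with the largest difference per table could be named, and of several rows with a symbol the highest was used. Locus starts in the tables count from 0 (end minus start equalled the GENCODE M21 gene length in 10580 of 19955 loci, and the length less 1 in 268), so 1 was added. Promoters are from RefSeq on GRCm38.p6, and the builds were not mixed. Fdps, Fdft1, Sqle, Stard4, Npc1, Abcg1, Scd1, Scd2 and Fads1 had no match there. Python 3.11.15, numpy 2.4.6, pandas 2.3.3 and matplotlib 3.10.9 were used, and the difference step was tested on simulated data. The alternatives were other pseudocounts, minimum levels and fold thresholds, centring, leaving out shared loci and a stricter q-value. Values of a few genes of the other lists are not reported here, though the counts and sums of those lists include them.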

Additional observations from a re-analysis of the deposited data

Results flagged for a closer look

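Members are given here where the difference had opposite signs in culture and in tumours and the log2 ratio without a pseudocount exceeded 1 implied error in each. The difference between the settings was not tested, and dose, time and tissue differ between them. This held for 6 of 33 members (18.2%) and for 10.6% of 11559 genes compared in both tables. Pmvk was at -1.71 in culture and 0.44 in tumours, Nsdhl at -0.73 and 0.49, Hsd17b7 at -0.90 and 0.55, Srebf1 at -0.93 and 0.48 and Elovl6 at -1.17 and 0.43, all as NXD30001 minus untreated on the log2(FPKM + 1) scale. Sqle had the reverse order, at 0.56 in culture and -0.37 in tumours. Every one of these except Sqle was lower in treated cells and higher in the treated tumour.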

How the results depend on the processing

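No replicate could be left out, since each group has 1 library. No paired analysis was possible because the groups have no replicates to pair. Single-member differences moved by less than their implied error under every pseudocount, minimum, centring and locus alternative, and no member at least 2-fold changed reversed its sign. Centring changed the sign of 1 uncalled member in each table (Sc5d in culture and Acly in tumours). With a pseudocount of 5 FPKM, 1 of 33 members was at least 2-fold higher in culture and 6 were lower, with a member median of -0.33. All genes gave 908 higher and 1694 lower of 12676 in culture, and 451 and 424 in tumours. In culture the members' lower share was then above that of all genes, and their higher share under it. Centring brought the member median in culture to -0.27. Without rows that share a locus, all genes gave 954 higher and 1865 lower in culture and 555 and 532 in tumours. A minimum of 5 FPKM gave 734 and 675 in tumours. At a 1.5-fold threshold, 4 of 33 members were higher and 16 lower in culture, against 2758 and 4769 of 12676 genes. There too the members' lower share was above that of all genes, and their higher share under it. In tumours 2 of 34 members were higher and 0 lower, against 2213 and 2302 of 15550 genes. With the main settings all genes gave 1603 and 3149 in culture and 1139 and 1077 in tumours. At a q-value under 0.01, the authors' deposited table called 0 members in culture, where 6.67% of all compared genes had such a q-value. The cause of these moves is the construction of each alternative. Implied errors of the members were larger in culture, and the part of depth in this was not tested.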
